A study of Mus musculus with 12 samples.

Results

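The genes described here are 8 serpins of mouse epidermis: Serpinb3a, Serpinb3b, Serpinb3c, Serpinb12, Serpinb5, Serpinb2, Serpina12 and Serpina9. They are 8 of 19477 genes with values, and they were chosen by name with their genotype differences at both ages already known. Those differences are therefore described without a test. The libraries came from dorsal epidermis of mice on a C57BL/6 background, peeled from heated skin, and total RNA was depleted of ribosomal RNA and read as single 50-base reads. Every mouse carried homozygous floxed alleles, written VDR fl/fl and Med1 fl/fl, of the vitamin D receptor gene Vdr and of Med1, a Mediator subunit that acts as its coactivator. The double knockout (DKO) libraries also carried K14 Cre+/-, a Cre recombinase under the keratin promoter that is active in basal keratinocytes and inherited by their descendants, whereas control libraries were K14 Cre-/-. There were 3 DKO and 3 control libraries at postnatal day 36 (P36), and 3 DKO and 3 control libraries at 6 months. The labels do not say that replicates are separate animals, so the spread between libraries may be partly technical.

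Serpins fold into a metastable shape with an exposed loop that a protease cuts. The cut serpin snaps into a new shape and holds the protease inactive, although some family members inhibit no protease. Clade B serpins mostly stay inside the cell and are abundant in stratified epithelia, where proteases take part in cornification and in the shedding of dead cells. Clade A serpins are secreted. Serpinb3a, Serpinb3b and Serpinb3c are mouse counterparts of human SERPINB3 and SERPINB4, the squamous cell carcinoma antigens, which inhibit papain-like cysteine proteases and chymotrypsin-like serine proteases. Human SERPINB12 inhibits trypsin-like proteases. Serpinb5 encodes maspin, a serpin without inhibitory activity that is known in epithelia as a tumour suppressor. Serpinb2 encodes an inhibitor of the plasminogen activators that is stored in differentiating keratinocytes. Serpina12 encodes vaspin, which inhibits the kallikrein Klk7, and SERPINA9 is known in humans as a product of germinal-centre B cells.

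The Serpinb3 genes are near-copies of each other, and the sequences below show how much of a read can tell them apart. Coding sequences of Serpinb3a and Serpinb3b were 93.10% identical in GENCODE transcripts (release M21), those of Serpinb3a and Serpinb3c 91.54%, and those of Serpinb3b and Serpinb3c 93.35%. Among 60-base windows that align without a gap, coding bases 15 to 74 held the most differences, counted over Serpinb3b and Serpinb3c together. Capitals mark the bases that differ from Serpinb3a, 12 in Serpinb3b and 10 in Serpinb3c.
Serpinb3a: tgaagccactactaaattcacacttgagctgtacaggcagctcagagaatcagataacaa
Serpinb3b: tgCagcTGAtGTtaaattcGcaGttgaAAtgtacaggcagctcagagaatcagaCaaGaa
Serpinb3c: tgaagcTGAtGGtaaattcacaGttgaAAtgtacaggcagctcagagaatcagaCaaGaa
A later stretch (coding bases 964 to 1023) was identical in Serpinb3a and Serpinb3b, so a 50-base read from it cannot tell these genes apart. Serpinb3c had 1 difference there, which every 50-base read within the stretch covers.
Serpinb3a: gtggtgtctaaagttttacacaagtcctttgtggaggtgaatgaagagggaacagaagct
Serpinb3b: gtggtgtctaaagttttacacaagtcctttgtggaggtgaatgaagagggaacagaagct
Serpinb3c: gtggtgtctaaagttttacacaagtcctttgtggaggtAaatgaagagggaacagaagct
Of all 50-base windows of the transcript, 15.15% in Serpinb3a, 14.65% in Serpinb3b and 12.17% in Serpinb3c also occurred in a transcript of another gene. The share was 2.64% in Serpina9, and no window of Serpinb2, Serpinb5, Serpinb12 or Serpina12 was shared. Values of single Serpinb3 genes are therefore uncertain to the extent that the counting split shared reads, and their sum is given beside them.

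The sequence before the transcript start is shown for the Serpinb3 genes and Serpinb12, whose means were several-fold higher in DKO at both ages, and for Serpinb2, which had the opposite difference at 6 months. The 300-base promoters, from RefSeq on GRCm38.p6, were 93.12% identical between Serpinb3a and Serpinb3b, 93.61% between Serpinb3a and Serpinb3c and 96.21% between Serpinb3b and Serpinb3c. Each of these promoters holds 1 TATA box, TATAAA, and the 100 bases around it are given with the box in capitals.
Serpinb3a, chr1:107052338-107052437, minus strand: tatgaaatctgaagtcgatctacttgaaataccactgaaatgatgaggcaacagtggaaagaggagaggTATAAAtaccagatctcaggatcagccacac
Serpinb3b, chr1:107161125-107161224, minus strand: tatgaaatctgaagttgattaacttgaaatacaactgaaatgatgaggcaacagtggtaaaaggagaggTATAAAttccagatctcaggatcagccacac
Serpinb3c, chr1:107278372-107278471, minus strand: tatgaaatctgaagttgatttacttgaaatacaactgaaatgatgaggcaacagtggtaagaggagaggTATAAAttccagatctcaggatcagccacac
Serpinb3b differed from Serpinb3a at 7 of these 100 bases, and Serpinb3c at 5. Serpinb12 and Serpinb2 each have a further listed start that is not shown. The further promoter of Serpinb12 held no AP-1 match, and from the further start of Serpinb2 the match lies at -181 to -175. Both promoters of Serpinb12 hold TATAAA farther upstream, at -220 to -215 from the start shown and at -201 to -196 from the further start. For the starts shown, the last 100 bases hold a match to the AP-1 motif TGANTCA, in capitals, and those of Serpinb2 also a TATA box.
Serpinb12, chr1:106934349-106934448, plus strand: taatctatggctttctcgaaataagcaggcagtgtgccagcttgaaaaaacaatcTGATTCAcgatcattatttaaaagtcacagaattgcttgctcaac
Serpinb2, chr1:107511323-107511422, plus strand: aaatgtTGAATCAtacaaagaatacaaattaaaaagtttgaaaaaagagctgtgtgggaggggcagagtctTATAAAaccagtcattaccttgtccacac
Searched on both strands, the AP-1 motif occurred in 7.81% and the TATA box in 13.62% of 32851 promoters. Promoters were matched for 7 of the 8 genes. The promoter of Serpinb5 also held an AP-1 match, and that of Serpina12 held neither motif. A vitamin D response element of the DR3 type, present in 0.04% of promoters, was found in none of the 7. A match is a description of the letters and not a bound site.

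Expression was given as FPKM, fragments scaled by gene length and library total, so levels can be compared between genes but the number of reads is unknown. Column totals were 446617 to 554382 FPKM, with 12056 to 12760 genes at 1 FPKM or more in a library. Vdr, the first targeted gene, stood at 87.35, 86.67 and 76.53 FPKM in the libraries labelled DKO, against 65.8, 65.5 and 72.85 FPKM in control at P36, and at 49.34, 42.11 and 52.89 against 53.52, 31.36 and 36.68 FPKM at 6 months. At neither age did the libraries labelled DKO hold less of it (limma-trend, log2 fold change 0.29 at P36, adjusted p = 0.0573, and 0.27 at 6 months, adjusted p = 0.302). A gene-level value also takes up reads from exons that the deletion leaves, so it does not check the deletion. Med1 was lower in DKO at P36 (log2 fold change -0.55, adjusted p = 0.0083), and at 6 months its log2 fold change was -0.26 (adjusted p = 0.13).

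At both ages Serpinb3a, Serpinb3b, Serpinb3c and Serpinb12 were higher in every DKO library than in every control library of the same age. Serpinb5 was abundant everywhere and slightly higher in DKO. Serpinb2, Serpina12 and Serpina9 had overlapping genotypes at P36 and parted at 6 months, with Serpinb2 and Serpina12 lower and Serpina9 higher in DKO. The libraries of DKO and control did not overlap for 5 of the 8 genes at P36, all higher in DKO, where 39.6% of all 12660 genes fitted did not overlap, 30% higher and 9.63% lower. At 6 months they did not overlap for 6 higher and 2 lower genes, against 55.7% of 12594 genes, 31.8% higher and 24% lower. These counts restate how the genes were chosen. All 8 passed the filter of 1 FPKM in at least 3 libraries, but Serpinb3a and Serpinb3c at P36 and Serpina9 at 6 months did so through DKO libraries alone. Serpinb3b at P36 and Serpinb3a at 6 months, with 2 control libraries at 1 FPKM, also needed DKO libraries to pass. So did Serpinb3c at 6 months, with 1. Fold changes below are on the log2(FPKM + 1) scale, with the standard error of the fit, and understate the change of low genes.

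**Figure D1:**
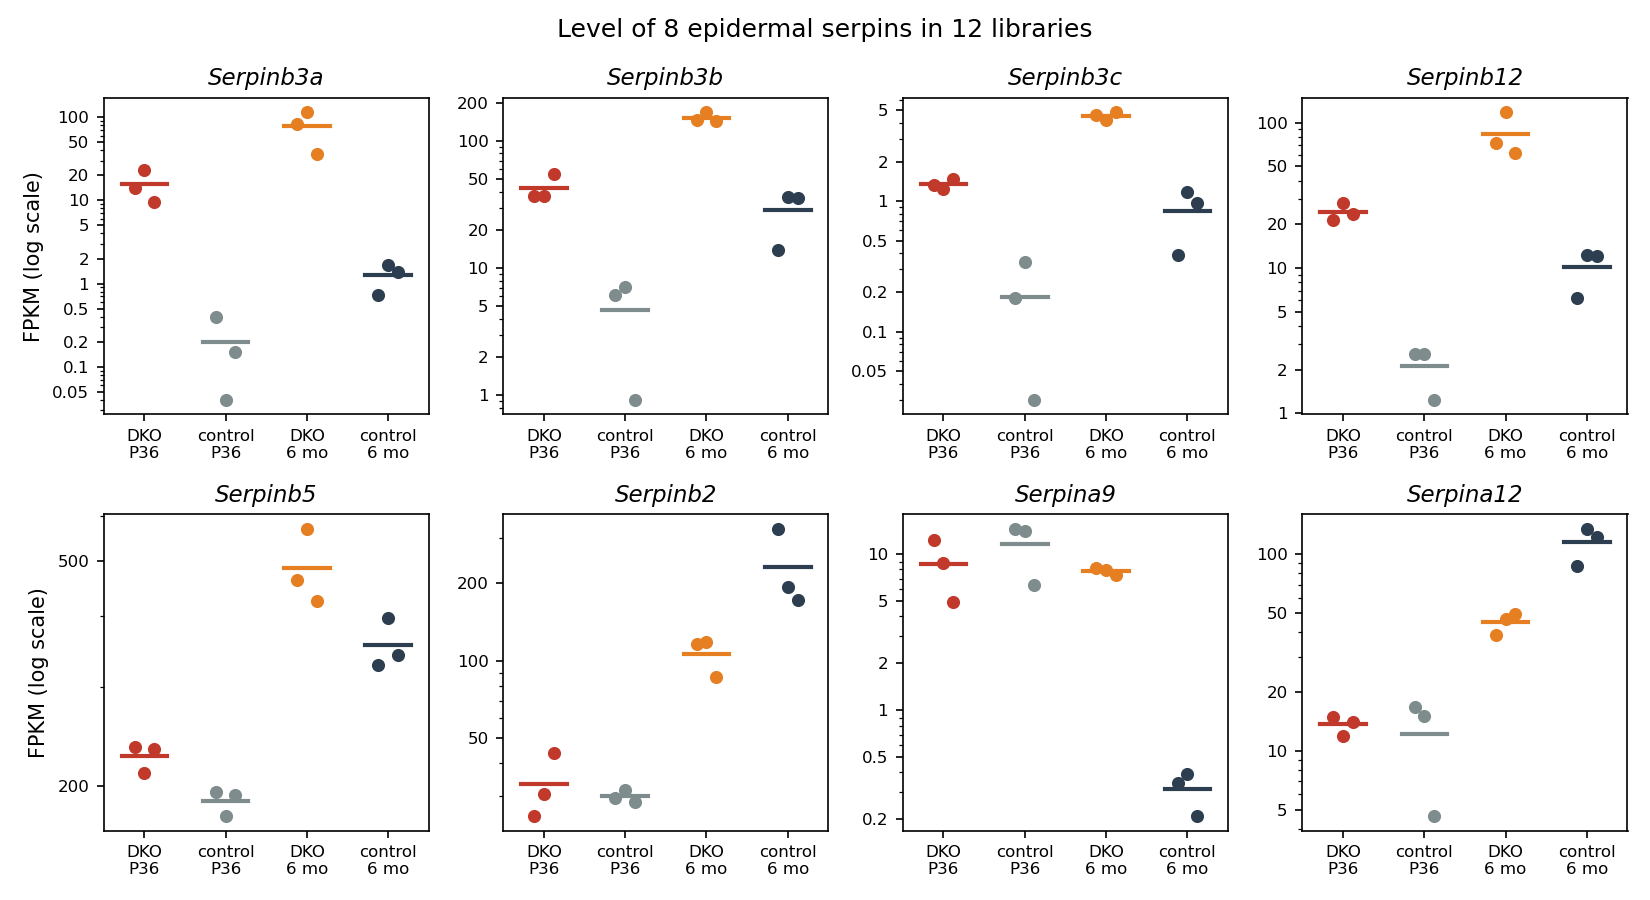
FPKM (log scale) of the 8 serpins in each of the 12 libraries, as points, with the mean of the 3 libraries of a group as a line, for DKO and control at P36 and at 6 months. Serpinb3a, Serpinb3b, Serpinb3c and Serpinb12 lie higher in DKO at both ages, and control Serpina9 at 6 months lies between 0.21 and 0.39 FPKM, below every other library.

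Serpinb3a had the largest difference of the 8 at both ages. At P36 it stood at 13.99, 23.32 and 9.68 FPKM in DKO libraries, against 0.4, 0.04 and 0.15 FPKM in control libraries. All control values lay under 1 FPKM, and the mean was 79.6-fold higher in DKO (log2 fold change 3.73, SE 0.28). At 6 months the values were 82.85, 114.12 and 36.23 FPKM in DKO and 0.73, 1.68 and 1.38 FPKM in control, a 61.5-fold higher mean (log2 fold change 5.0, SE 0.40). The lowest DKO library at 6 months, replicate 3, was also the one with the highest macrophage and skeletal muscle marker sums of its group, 366 and 138 FPKM, and the part of these cells in its value was not tested. With a pseudocount of 0.1 the log2 fold changes were 5.83 at P36 and 5.75 at 6 months. The authors' deposited table gave Serpinb3a log2 ratios of 6.32 and 5.94.

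Serpinb3b carried most of the FPKM of the Serpinb3 genes in every library. It stood at 36.73, 36.82 and 54.97 FPKM in DKO and at 6.15, 7.11 and 0.92 FPKM in control at P36, a 9.06-fold higher mean (log2 fold change 3.16, SE 0.50). Control replicate 3 was the lowest library, and without it the log2 fold change of Serpinb3b at P36 was 2.50. At 6 months DKO libraries reached 146.66, 168.52 and 144.25 FPKM, against 14.02, 36.2 and 35.91 FPKM in control, a 5.33-fold higher mean (log2 fold change 2.49, SE 0.34). The order of its groups was DKO at 6 months, DKO at P36, control at 6 months and control at P36, and no neighbours in that order overlapped, although the lowest DKO library at P36 lay only just above the highest control library at 6 months.

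Serpinb3c was the least abundant of the copies. It had 1.34, 1.24 and 1.48 FPKM in DKO and 0.18, 0.34 and 0.03 FPKM in control at P36, and 4.6, 4.22 and 4.8 FPKM in DKO and 0.39, 1.17 and 0.97 FPKM in control at 6 months. The groups did not overlap at either age, and the log2 fold changes were 1.00 (SE 0.15) at P36 and 1.61 (SE 0.19) at 6 months. With a pseudocount of 0.1 they were 2.52 and 2.41.

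The makeup of the Serpinb3 sum differed between genotypes as well as its size. Summed FPKM of Serpinb3a, Serpinb3b and Serpinb3c averaged 59.9 ± 7.16 in DKO and 5.11 ± 3.49 in control at P36, and 235 ± 50.8 in DKO and 30.8 ± 13.6 in control at 6 months (SD, n = 3 each). The mean sum was 11.7-fold higher in DKO at P36 and 7.64-fold higher at 6 months. Serpinb3a made up 14.6% to 39.8% of the sum in the 6 DKO libraries and 0.534% to 13.6% in the 6 control libraries. Serpinb3b made up 58.7% to 83.1% in DKO libraries and 83.6% to 94.9% in control libraries, so the shares of both genes did not overlap between genotypes, though only narrowly, and the sum was 1.1 FPKM in the control library nearest to DKO. Counting that splits shared reads between copies can move these shares, and this was not tested.

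**Figure D2:**
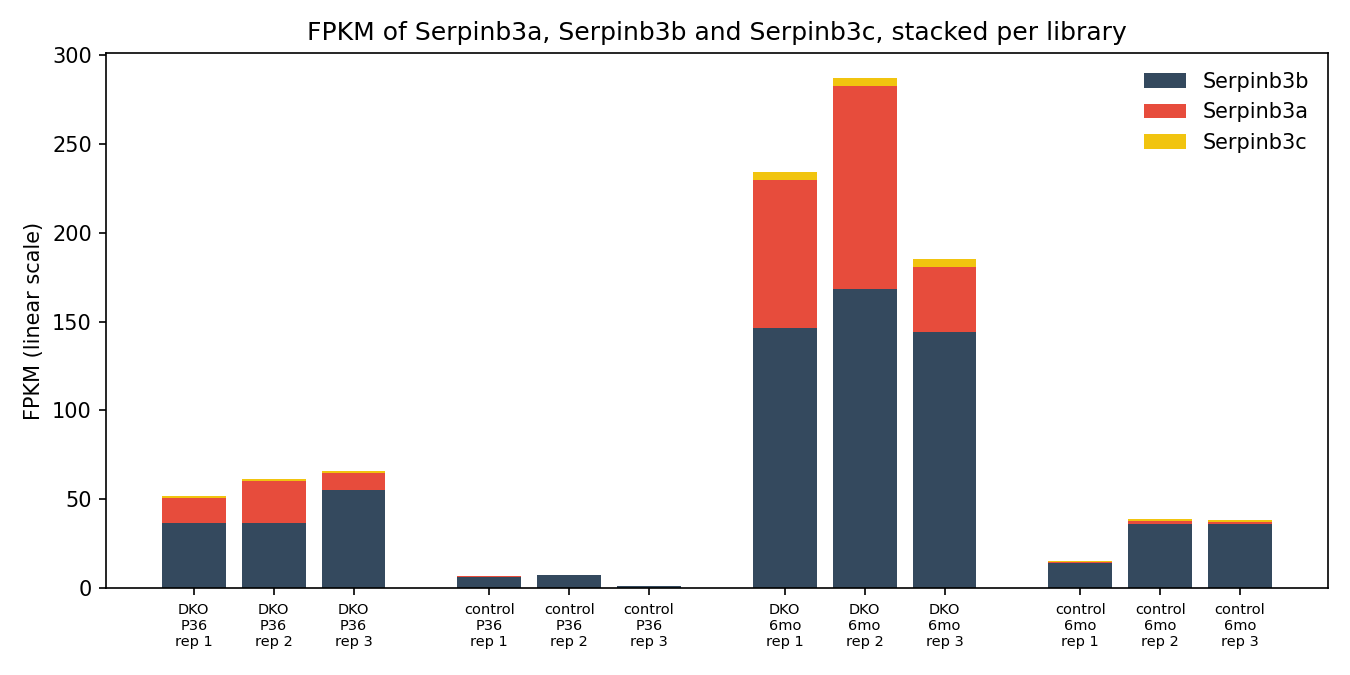
FPKM (linear scale) of Serpinb3b, Serpinb3a and Serpinb3c stacked in each library, by genotype, age and replicate. Sums are 185 to 287 FPKM in DKO at 6 months, and the Serpinb3a portion is 14.6% to 39.8% of the bar in DKO libraries and 13.6% at most in control libraries.

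Serpinb12 ran alongside the Serpinb3 genes without sharing any 50-base window with them. It stood at 21.32, 28.13 and 23.37 FPKM in DKO and at 2.58, 2.56 and 1.24 FPKM in control at P36. At 6 months it stood at 72.15, 117.78 and 62.27 FPKM in DKO and at 6.21, 12.21 and 12.03 FPKM in control. Its mean was 11.4-fold higher in DKO at P36 (log2 fold change 3.04, SE 0.20) and 8.28-fold higher at 6 months (log2 fold change 2.93, SE 0.31). The order of its groups was that of Serpinb3b, and no neighbours overlapped.

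Serpinb5 was the most abundant of the 8 genes in all 12 libraries, with 177 to 570 FPKM. It had 234.32, 210.73 and 232.66 FPKM in DKO and 195.23, 177.12 and 192.72 FPKM in control at P36, and 462.17, 570.39 and 425.76 FPKM in DKO and 328.12, 396.7 and 340.71 FPKM in control at 6 months. The groups did not overlap at either age, yet the differences were small, 0.26 (SE 0.09) at P36 and 0.45 (SE 0.14) at 6 months on the log2 scale. They depended on scaling: median-ratio scaling of the libraries gave Serpinb5 0.13 at P36, and totals computed without keratin and cornified envelope genes gave 0.26 at 6 months.

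Serpinb2 had overlapping genotypes at P36, with 24.98, 30.54 and 44.01 FPKM in DKO and 29.5, 31.51 and 28.3 FPKM in control (log2 fold change 0.11, SE 0.18). That value for Serpinb2 lay between -0.10 and 0.29 over the alternatives. At 6 months it stood at 116.04, 117.77 and 86.15 FPKM in DKO, against 325.23, 193.35 and 171.31 FPKM in control. Every DKO library lay below every control library, and the DKO mean was 2.16-fold lower (log2 fold change -1.06, SE 0.25). Control replicate 1 was far above the others of its group, and without it the log2 fold change of Serpinb2 was -0.78.

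Serpina12 followed the pattern of Serpinb2. At P36 it had 14.81, 11.94 and 14.03 FPKM in DKO and 16.75, 15.1 and 4.64 FPKM in control. Control replicate 3 was low, the genotypes overlapped, and the log2 fold change was 0.31 (SE 0.39), which became -0.22 without that library. At 6 months it had 39.02, 46.6 and 49.9 FPKM in DKO, against 87.17, 135.13 and 122.29 FPKM in control, a 2.54-fold lower DKO mean (log2 fold change -1.31, SE 0.18). Serpina12 is also made by fat cells. The summed adipocyte markers were 106 to 451 FPKM in DKO and 92.0 to 527 FPKM in control at 6 months, and their part in the Serpina12 values was not tested.

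Serpina9, the neighbour of Serpina12 on chromosome 12, had the reverse pattern. At P36 it had 12.41, 8.75 and 4.94 FPKM in DKO and 14.62, 14.19 and 6.36 FPKM in control, overlapping ranges (log2 fold change -0.39, SE 0.36). At 6 months it had 8.14, 7.89 and 7.36 FPKM in DKO, against 0.34, 0.39 and 0.21 FPKM in control. The DKO mean was 24.9-fold higher (log2 fold change 2.75, SE 0.12, or 4.28 with a pseudocount of 0.1). Of the B cell markers, Pax5 was listed at 0 in all 6 libraries that list it, Ms4a1 was listed at 0 in 9 of 12 libraries, and Blk reached at most 3.05 FPKM in any library.

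Age was compared within each genotype in a fit of all 12 libraries (limma-trend, adjusted over the 13280 genes that both tables list and that passed the filter). The ages stand in separate tables, and age and table cannot be told apart. Age differences were frequent: 60% of all genes were called in DKO, 28% as higher and 32% as lower at 6 months, and 63.1% in control, 35.3% as higher and 27.9% as lower. Among the 8 serpins, 7 were called higher at 6 months in DKO. In control 6 were higher and 1, Serpina9, was lower. The median log2 fold change of the 8 was 1.67 in DKO and 1.36 in control, against -0.06 and 0.10 over all genes.

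In DKO, Serpinb3a was higher at 6 months by 2.18 on the log2 scale (SE 0.38, adjusted p = 0.000518), Serpinb3b by 1.84 (SE 0.49, adjusted p = 0.00664) and Serpinb3c by 1.24 (SE 0.17, adjusted p = 8.19e-05). In control, Serpinb3b was higher by 2.51 (SE 0.49, adjusted p = 0.000775) and Serpinb3c by 0.62 (SE 0.17, adjusted p = 0.0061). Serpinb3c reached 1 FPKM in 0 control libraries at P36 and in 1 at 6 months, and Serpinb3a in 0 and 2. Both genes passed the filter of this fit only with the DKO libraries, where they are high. Their age differences in control thus compare low, weakly determined values. Serpinb3a in control had a log2 fold change of 0.91 (SE 0.38, adjusted p = 0.0559) and did not pass the test, although all 3 libraries at 6 months lay above those at P36. It passed under 8 of 18 alternatives, over which its adjusted p lay between 0.00238 and 0.15. Among those 8 was leaving out any of control replicate 1 or DKO replicate 2 or 3 at 6 months, or DKO replicate 2 or 3 at P36 (adjusted p = 0.0474, 0.0377, 0.0134, 0.0438 and 0.0483). Without control replicate 3 at P36 the log2 fold change of Serpinb3b in control was 1.85.

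Serpinb12 and Serpinb5 were called higher at 6 months in both genotypes. Serpinb12 was higher at 6 months by 1.71 in DKO (adjusted p = 0.00037) and by 1.81 in control (adjusted p = 0.000168), with an SE of 0.28 in each. Serpinb5 was higher by 1.09 in DKO (adjusted p = 1.81e-05) and by 0.91 in control (adjusted p = 3.59e-05), with an SE of 0.12 in each. In all 3 libraries of each genotype both genes lay higher at 6 months than in any library at P36.

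Serpinb2 and Serpina12 were higher at 6 months in both genotypes. Serpinb2 was higher by 1.68 in DKO (SE 0.24, adjusted p = 0.000128) and by 2.85 in control (SE 0.24, adjusted p = 1.33e-06). Serpina12 was higher by 1.66 in DKO (SE 0.35, adjusted p = 0.00159) and by 3.28 in control (SE 0.35, adjusted p = 7.6e-06). Serpina9 in DKO had a log2 fold change with age of -0.06 (SE 0.30, adjusted p = 0.869), and its DKO libraries of both ages overlapped. In control it fell by 3.20 (SE 0.30, adjusted p = 3.41e-06), and its mean at 6 months was 37.4-fold lower. The differences between genotypes in these age effects follow from the known genotype differences and were not tested for the 8 genes.

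**Figure D3:**
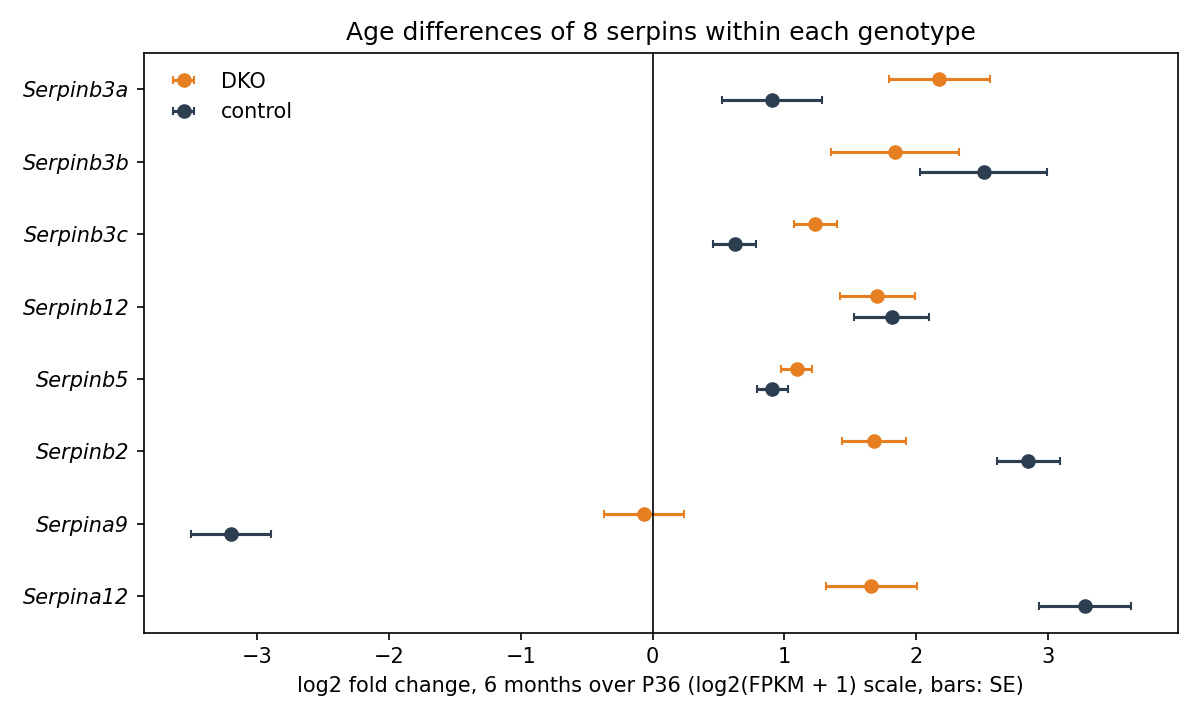
Log2 fold change of 6 months over P36 on the log2(FPKM + 1) scale, with its standard error as bars, for the 8 serpins in DKO and in control. Serpina9 stands apart, at -0.06 in DKO and -3.20 in control, while the other 7 lie between 0.62 and 3.28.

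Keratinocyte markers moved with genotype and age too. The sum of 4 suprabasal markers (Krt1, Krt10, Dsg1a, Dsc1) was 3907 to 5253 FPKM in DKO and 997 to 1412 FPKM in control at P36, and 4458 to 6349 FPKM in DKO and 5795 to 9188 FPKM in control at 6 months. The sum of 4 basal markers was 4757 to 6320 FPKM in DKO and 2633 to 4834 FPKM in control at P36, and 3582 to 4330 FPKM in DKO and 4313 to 5995 FPKM in control at 6 months. The sum of 6 markers of the upper hair follicle, such as Krt79, was 838 to 1142 FPKM in DKO and 415 to 736 FPKM in control at P36, and 1493 to 1919 FPKM in DKO and 286 to 441 FPKM in control at 6 months. The sum of 6 sebocyte markers was 99.8 to 159 FPKM in DKO and 62.1 to 99.5 FPKM in control at P36, and 244 to 321 FPKM in DKO and 112 to 232 FPKM in control at 6 months. Single markers did not all follow these sums. At P36, 2 of 4 suprabasal, 2 of 4 basal, 1 of 6 upper follicle and 2 of 5 tested sebocyte markers were called higher. The sebocyte marker Scd3 was called lower. At 6 months 1 suprabasal, 4 upper follicle and 3 sebocyte markers were called higher, and 2 suprabasal, 3 basal and 1 sebocyte marker lower. Of all genes, 18% were called higher at P36 and 23.2% at 6 months. The marker lists were chosen with earlier results of these data known, so these counts are a description. The part of these cell types in the serpin values was not tested, and in bulk tissue fewer cells of a type cannot be told apart from less RNA per cell.

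Of the 8 genes, 6 sit in the clade B serpin cluster on chromosome 1, which in RefSeq (GRCm38.p6) holds 12 genes in the order Serpinb5, Serpinb12, Serpinb13, Serpinb3a, Serpinb3d, Serpinb3b, Serpinb3c, Serpinb11, Serpinb7, Serpinb2, Serpinb10 and Serpinb8. Because 6 of these genes were chosen with their differences known, the course of the differences along the cluster is a description. At 6 months the log2 fold changes of the 7 genes from Serpinb5 to Serpinb3c were above 0 and those of the other 5 below 0. Of the 6 genes not chosen, Serpinb13 and Serpinb3d were called higher and Serpinb7 and Serpinb10 lower in DKO at that age, where 41.3% of all genes were called at an adjusted p below 0.05, 23.2% as higher and 18.2% as lower. Serpinb13, whose human counterpart inhibits cathepsins, had 2.5, 2.32 and 1.82 FPKM in DKO and 0.67, 1.31 and 1.08 FPKM in control at 6 months (log2 fold change 0.68, SE 0.17, adjusted p = 0.0189). Its call was lost without DKO replicate 1 (adjusted p = 0.0717) or DKO replicate 2 (adjusted p = 0.0667), and its adjusted p was 0.0159 to 0.0717 over all alternatives. Serpinb3d, a further copy, had 3.25, 2.46 and 1.5 FPKM in DKO and 0.06, 0.17 and 0.26 FPKM in control (log2 fold change 1.52, SE 0.22, adjusted p = 0.00208). It passed the filter through DKO libraries alone, so it could be tested only because it was high there. It shares 13.37% of its 50-base windows with other genes, so its value too may take up reads of its copies.

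Serpinb7, whose loss in humans causes a palmoplantar keratosis, had 86.56, 111.87 and 79.33 FPKM in DKO and 184.29, 208.77 and 207.58 FPKM in control at 6 months (log2 fold change -1.12, SE 0.14, adjusted p = 0.00142). At P36 Serpinb7 had 21.87, 17.07 and 26.37 FPKM in DKO and 16.19, 12.93 and 9.68 FPKM in control, a call in the other direction (log2 fold change 0.71, SE 0.20, adjusted p = 0.0381). That P36 call was lost under 8 of 12 alternatives, over which its adjusted p was 0.0264 to 0.131. Among the 8 was leaving out DKO replicate 1 or 3 (adjusted p = 0.0896 and 0.131) or control replicate 2 or 3 (adjusted p = 0.0838 and 0.0879). Serpinb10 had 8.8, 11.46 and 8.41 FPKM in DKO and 32.4, 34.65 and 36.36 FPKM in control at 6 months (log2 fold change -1.76, SE 0.13, adjusted p = 0.000227). At P36 Serpinb10 had 2.09, 2.1 and 3.82 FPKM in DKO and 0.6, 1.32 and 0.64 FPKM in control (log2 fold change 0.97, adjusted p = 0.0169), a call lost without DKO replicate 3 (adjusted p = 0.0517) or control replicate 1 (adjusted p = 0.0607), with 0.0155 the lowest over all alternatives. The genotype effect of Serpinb7 differed between ages by -1.83 (adjusted p = 0.000624) and that of Serpinb10 by -2.73 (adjusted p = 9.38e-05), a contrast in which 34.9% of all genes were called, 13.8% as higher and 21.1% as lower. Serpinb11 and Serpinb8 were not called at either age. At 6 months their log2 fold changes were -0.46 (adjusted p = 0.141) and -0.04 (adjusted p = 0.837).

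**Figure D4:**
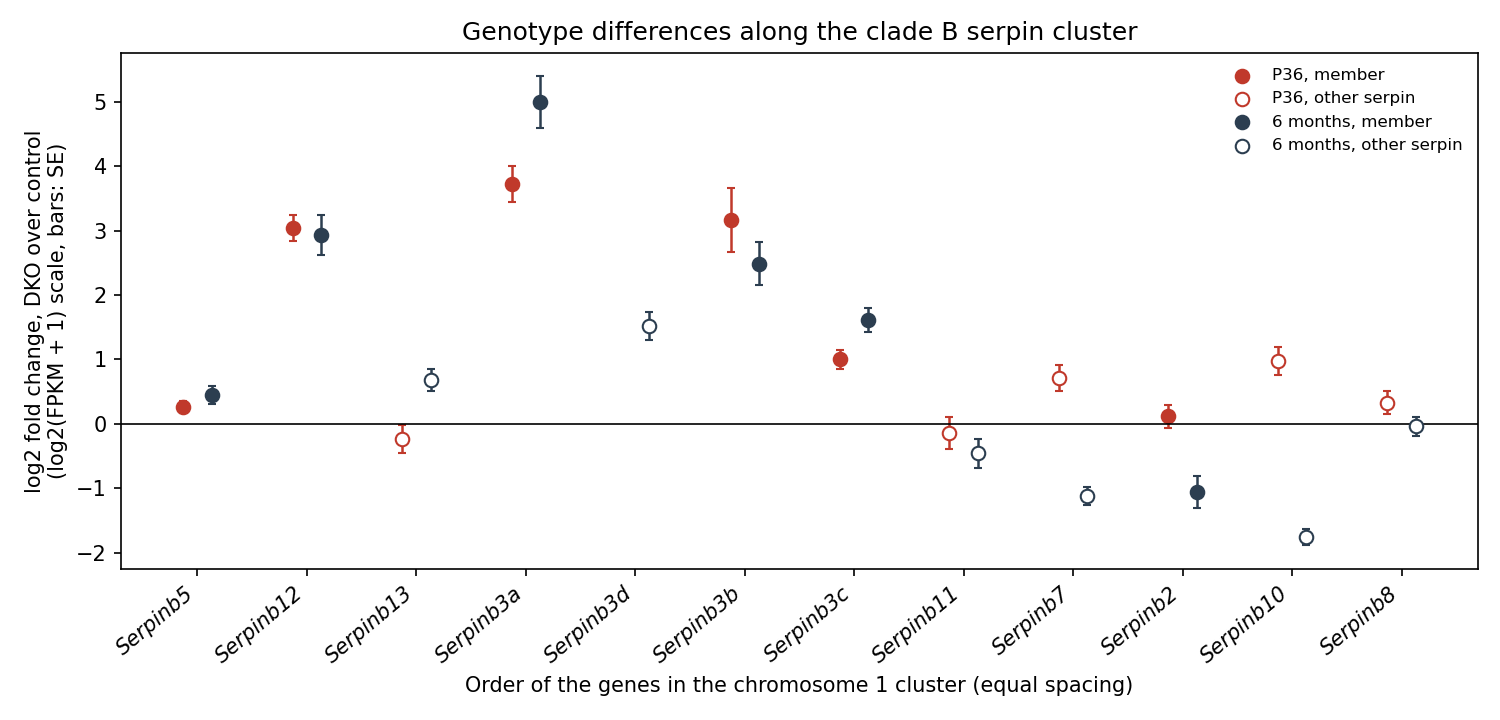
Log2 fold change of DKO over control on the log2(FPKM + 1) scale, with its standard error as bars, for the 12 genes of the chromosome 1 cluster in their order at equal spacing, at P36 and at 6 months. Filled points are the chosen genes and open points the other serpins. At 6 months the 7 genes on the left lie above 0, and Serpinb7, Serpinb2 and Serpinb10 lie between -1.06 and -1.76. Serpinb3d was not tested at P36.

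The tables hold 53 further serpins. At P36, 23 of them passed the filter, 12 were higher and 5 lower in DKO, where 23.3% of all genes were called, 18% as higher and 5.32% as lower, and their median log2 fold change was 0.71 against 0.09 over all genes. Of those named below, Serpinb6c passed the filter at P36 through DKO libraries alone, and Serpina11 and Serpinb6e through control libraries alone. At 6 months Serpinb6c also needed DKO libraries to pass, with control libraries at 0.45, 0.71 and 1.19 FPKM. Without DKO replicate 3 the number called at P36 was 10. At 6 months 26 were tested, 5 were higher and 2 lower, against 23.2% and 18.2% of all genes, and the median log2 fold change was -0.49 against 0.04. There the count was 4 without DKO replicate 2, and 11 without DKO replicate 3, with 4 higher and 7 lower. The share of higher calls among all called genes was 77.1% at P36, against 58.9% with median-ratio scaling, and 56.0% at 6 months, against 36.1% with totals computed without keratin and cornified envelope genes.

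Serpinb6c was higher in DKO at both ages, with 4.77, 8.68 and 12.25 FPKM in DKO and 0.9, 0.33 and 0.41 FPKM in control at P36, and 17.21, 16.41 and 13.09 FPKM in DKO and 0.45, 0.71 and 1.19 FPKM in control at 6 months. Its log2 fold changes were 2.57 (adjusted p = 0.0011) and 3.23 (adjusted p = 0.000113). Serpinb6a and Serpinb1a, whose human relatives inhibit leukocyte proteases such as cathepsin G and neutrophil elastase, were also higher at both ages. Serpinb6a had log2 fold changes of 1.15 at P36 (adjusted p = 0.0016) and 0.51 at 6 months (adjusted p = 0.00796). Serpinb1a had log2 fold changes of 1.85 (adjusted p = 0.000416) and 0.72 (adjusted p = 0.0306). The Serpinb1a call at 6 months was lost under 6 of 12 alternatives (adjusted p 0.0128 to 0.096), among them without DKO replicate 2 (adjusted p = 0.096) or 3 (adjusted p = 0.0631), or control replicate 1 (adjusted p = 0.0648) or 2 (adjusted p = 0.0935). Reads of Serpinb6 and Serpinb1 copies may be split between them.

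Serpinh1, Serping1, Serpinf1 and Serpina3n were higher in DKO at P36 and not called at 6 months, where their log2 fold changes lay between -0.51 (Serpina3n, adjusted p = 0.246) and -0.98 (Serping1, adjusted p = 0.0596). Serpinh1, the collagen chaperone, had 137.11, 151.09 and 134.61 FPKM in DKO and 53.03, 78.69 and 50.24 FPKM in control at P36 (log2 fold change 1.23, adjusted p = 0.00187). Serping1, the inhibitor of complement component C1, had a log2 fold change of 1.08 (adjusted p = 0.00373), and Serpinf1, an antiangiogenic serpin, 0.64 (adjusted p = 0.00972). Serpina3n, an acute phase inhibitor of leukocyte proteases, had 79.95, 84.42 and 177.48 FPKM in DKO and 20.47, 7.98 and 26.82 FPKM in control (log2 fold change 2.62, adjusted p = 0.00469). Markers of some other cells were higher in DKO at P36 too, where 18% of all genes were called higher. All 8 macrophage markers were called higher (sum 259 to 400 FPKM in DKO, 51.7 to 68.8 FPKM in control). So were all 9 skeletal muscle markers (130 to 556 FPKM in DKO, 12.8 to 26.4 FPKM in control). Of 7 tested adipocyte markers 6 were called higher, but the sums overlapped (1000 to 1281 FPKM in DKO, 717 to 1132 FPKM in control). Only 2 of 6 fibroblast markers were called higher, and their sums overlapped (978 to 1366 FPKM in DKO, 559 to 1144 FPKM in control). At 6 months DKO replicate 3 held the highest sums of its group, with 366 FPKM of macrophage and 923 FPKM of fibroblast markers. These marker lists too were chosen with earlier results of these data known. The part of these cells in the serpin values was not tested.

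The serpins lower in DKO at P36 were clade A genes and Serpinb6e. Serpina3b had 0.82, 6.78 and 5.37 FPKM in DKO and 39.13, 34.76 and 14.77 FPKM in control (log2 fold change -2.66, adjusted p = 0.0117, and -2.01 without DKO replicate 1). Serpina1e, one of the mouse antitrypsin copies, had 13.38, 10.09 and 10.14 FPKM in DKO and 25.56, 22.69 and 18.39 FPKM in control (log2 fold change -0.93, adjusted p = 0.00416). Serpina11, next to Serpina9 on chromosome 12, had 0.78, 0.82 and 0.5 FPKM in DKO and 2.94, 2.69 and 2.44 FPKM in control (log2 fold change -1.12, adjusted p = 0.00134). Serpina3j had a log2 fold change of -2.14 (adjusted p = 0.0292), which missed the threshold under 5 of 12 alternatives (adjusted p 0.00831 to 0.0932). Those included leaving out DKO replicate 1 or 3 (adjusted p = 0.0647 and 0.0907) or control replicate 1 or 2 (adjusted p = 0.0932 and 0.058). Serpinb6e had a log2 fold change of -1.12 (adjusted p = 0.0133), lost without DKO replicate 2 (adjusted p = 0.0569) or 3 (adjusted p = 0.052), with 0.00601 the lowest over all alternatives. Serpina1e, Serpina3b, Serpina3j and Serpinb6e belong to groups of near-identical copies, so reads may be split among them.

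**Figure D5:**
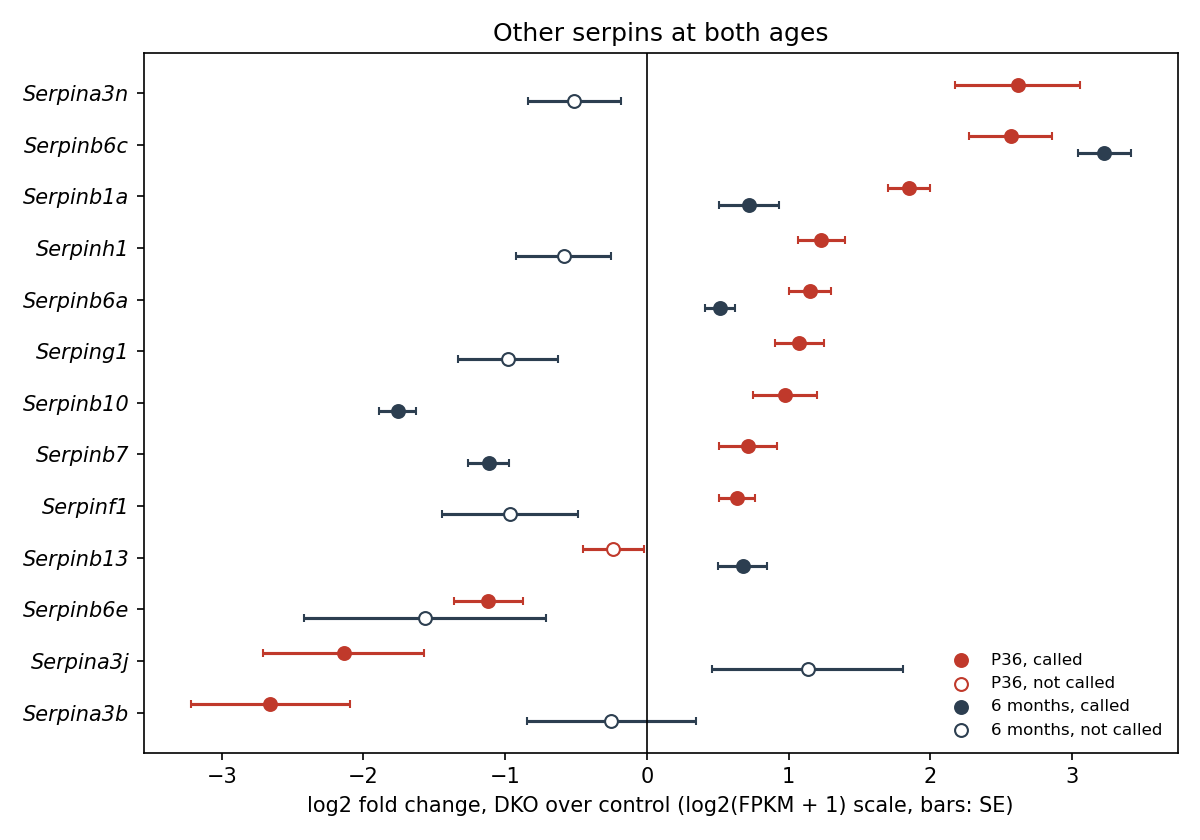
Log2 fold change of DKO over control on the log2(FPKM + 1) scale, with its standard error as bars, at P36 and at 6 months, for 13 other serpins named in the text that were tested at both ages. Filled points were called at an adjusted p below 0.05. Serpinb7 and Serpinb10 lie above 0 at P36 and below 0 at 6 months, and Serpinb6c lies above 2 at both ages.

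Proteases that these serpins are known to bind, and the urokinase receptor Plaur, were read from a list of 11 genes. The list was chosen with earlier results of these data known, so its counts and medians are a description. Of 8 tested, 5 were higher in DKO at P36 and 2 at 6 months, against 18% and 23.2% of all genes, with a median log2 fold change of 0.85 against 0.09 over all genes at P36 and of 0.62 against 0.04 at 6 months. Klk7, the kallikrein inhibited by vaspin, had 369.24, 394.63 and 384.08 FPKM in DKO and 371.49, 201.1 and 411.93 FPKM in control at P36 (log2 fold change 0.29, adjusted p = 0.464). At 6 months Klk7 had 886.85, 963.1 and 905.46 FPKM in DKO and 373.43, 451.6 and 406.46 FPKM in control (log2 fold change 1.16, SE 0.11, adjusted p = 0.000526). It thus stood higher in the same DKO libraries in which Serpina12 stood lower.

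Ctsl, the lysosomal cathepsin L of keratinocytes, had a log2 fold change of -0.04 at P36 (adjusted p = 0.859). At 6 months it had 179.73, 173.21 and 175.82 FPKM in DKO and 76.6, 103.08 and 106.67 FPKM in control (log2 fold change 0.89, adjusted p = 0.00267). The genotype effect of Ctsl was larger at 6 months than at P36 by 0.93 (adjusted p = 0.00387). That of Klk7 was larger by 0.88 (adjusted p = 0.0377), a call lost under 12 of 18 alternatives (adjusted p 0.000432 to 0.0874), among them leaving out any 1 library other than control replicate 2 of either age. Plau, the urokinase inhibited by the product of Serpinb2, was higher in DKO at P36 by 0.61 (adjusted p = 0.038), and Plaur by 1.51 (adjusted p = 0.000855). The Plau call was lost under 7 of 12 alternatives (adjusted p 0.0153 to 0.131), among them without DKO replicate 1 or 2 (adjusted p = 0.0925 and 0.131) or control replicate 1 or 2 (adjusted p = 0.0941 and 0.101). At 6 months their log2 fold changes were 0.53 (adjusted p = 0.522) and -0.40 (adjusted p = 0.472). Plat, the tissue plasminogen activator, had log2 fold changes of 0.05 (adjusted p = 0.818) and -0.20 (adjusted p = 0.542).

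Ctss, Ctsk and Cma1 are abundant in macrophages, connective tissue cells and mast cells. They were higher in DKO at P36 by 3.02 (adjusted p = 0.000474), 1.08 (adjusted p = 0.0013) and 2.24 (adjusted p = 0.000872), and none of them was called at 6 months (adjusted p = 0.113, 0.26 and 0.346). The macrophage sums given above moved with them. Plg, Klk14 and Ctsg did not pass the filter. Klk14, a second kallikrein that vaspin can inhibit, had 0.49, 0.85 and 0.91 FPKM in DKO and 2.64, 4 and 0.72 FPKM in control at P36, and under 1 FPKM in every library at 6 months.

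Genes with the most similar course over the 12 libraries were ranked by the root-mean-square difference between standardised log2(FPKM + 1) profiles, in SD units, among 12742 genes. This is a description of likeness that reflects genotype and age together. Standardised profiles leave out the size of a change, so a close gene can change far less than the serpin. Closest to the Serpinb3 sum were Srd5a3, a polyprenol and steroid reductase (0.234), Ak3, a mitochondrial adenylate kinase (0.237), and Ces2g, a carboxylesterase (0.259). Ces2g averaged 17.8 FPKM in DKO and 2.84 FPKM in control at P36, and 43.7 FPKM in DKO and 15.4 FPKM in control at 6 months. Closest to Serpinb12 were the lactate transporter gene Slc16a1 (0.156), Ech1, an enzyme of fatty acid oxidation (0.188), and Emc3, a subunit of the membrane protein insertion complex (0.197).

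Closest to Serpinb5 were the ubiquitin ligase gene Cop1 (0.109), the mitochondrial GTPase gene Rhot1 (0.141) and the G protein subunit gene Gng12 (0.142). Closest to Serpinb2 were Cpeb3, which encodes an RNA-binding protein (0.158), Vamp2, a vesicle fusion gene (0.166), and Ndel1, a partner of dynein (0.179). Closest to Serpina12 were the vesicle SNARE gene Vti1a (0.204), the kinase gene Stk10 (0.214) and Btc, which encodes the EGF receptor ligand betacellulin (0.219). Btc averaged 4.38 FPKM in DKO and 3.87 FPKM in control at P36, and 24.4 FPKM in DKO and 73.3 FPKM in control at 6 months. Closest to Serpina9 were Alg8, an enzyme of N-glycosylation (0.175), the DNA repair gene Apex1 (0.215) and 2810004N23Rik (0.216).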

How the data were processed

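Total RNA of dorsal epidermis was sequenced in 12 libraries, 3 per genotype and age, as 50-base single-end reads. The authors deposited 1 table per age with FPKM values per gene and library, and per the file headers their own log2 ratio, p-value and q-value for DKO over control; of these, only log2 ratios of Serpinb3a are quoted. The tools named in the submitters' processing notes are HISAT2 2.1.0 and RSEM 1.2.8. The same notes list human builds (GRCh38, hg38) for these mouse samples, so gene coordinates of the counted features are not given. The age of a table comes from its name. Entrez identifiers were matched to RefSeq symbols (GRCm38.p6) for 19343 of the 19392 genes listed at P36 and for 17712 of the 17750 listed at 6 months.

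FPKM are not counts and depth is unknown, so no counting interval is given. In R 4.3.3, limma-trend (limma 3.58.1) was fitted to log2(FPKM + 1) over genes that reached 1 FPKM in 3 or more of the fitted libraries, with Benjamini-Hochberg adjustment over all genes fitted and a threshold of 0.05. Genotype was fitted within each age, and age and the difference of genotype effects on all 12 libraries. The procedure was tested on simulated data. Alternatives were a pseudocount of 0.1, no filter, a filter of 5 FPKM, median-ratio scaling, totals without keratin and cornified envelope genes, a replicate block, and leaving out each library; for the proteases, Med1 and the age differences of Serpina1e and Serpina3b they were added after seeing the data. The 8 genes, the protease list and the cell type marker lists were chosen with earlier results of these data known. Other serpins were named when called with a mean of at least 1 FPKM, up to the 8 smallest adjusted p per direction and age; Serpinb7, Serpinb10, Serpinb8 and Serpinb11 at further ages are named for their place in the cluster. Promoters came from RefSeq and coding sequences from GENCODE M21, compared with Biopython 1.88. Some genes that the naming rule or the marker lists include are not reported here.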

Additional observations from a re-analysis of the deposited data

Results flagged for a closer look

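For 13 named serpins outside the 8 chosen genes, the genotype effect differed between ages by the test of the difference itself (limma-trend, DKO over control at 6 months minus that at P36, on the log2 scale), a difference found in 34.9% of all 13280 genes. In 5 of them the effect was higher at 6 months. These were Serpina11 (1.5, adjusted p = 0.000254), Serpina1e (0.94, adjusted p = 0.00487), Serpina3j (3.27, adjusted p = 0.0255), Serpinb13 (0.91, adjusted p = 0.0308) and Serpinb3d (1.23, adjusted p = 0.00456). Serpina11 was listed at 0 in all 3 control libraries at 6 months, and Serpina1e stood at 0.15 FPKM or less in all 6 libraries of that age. Serpinb3d reached 1 FPKM only in DKO libraries at 6 months, and Serpina11 only in control libraries at P36. Both could be tested only because they were high in that group, so their calls add little beyond it.

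In the other 8 the effect was lower at 6 months. Serpinb10 (-2.73, adjusted p = 9.38e-05) and Serpinb7 (-1.83, adjusted p = 0.000624) lie in the chromosome 1 cluster. Serpina3n (-3.13, adjusted p = 0.0034), Serping1 (-2.06, adjusted p = 0.00424), Serpinh1 (-1.82, adjusted p = 0.00638) and Serpinf1 (-1.60, adjusted p = 0.0419) were called higher in DKO at P36 alone. Serpinb1a (-1.13, adjusted p = 0.00872) and Serpinb6a (-0.63, adjusted p = 0.0238) were called higher at both ages.

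Among the proteases and the receptor, the effect was higher at 6 months for Ctsl (0.93, adjusted p = 0.00387) and Klk7 (0.88, adjusted p = 0.0377). It was lower for Ctss (-2.20, adjusted p = 0.00628), Plaur (-1.90, adjusted p = 0.0112) and Cma1 (-1.64, adjusted p = 0.04996).

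Some of the calls of serpins were lost under alternatives. Serpinf1 lost it under 10 of 18 (adjusted p of up to 0.102), Serpina3j under 7 (up to 0.0646), Serpinb13 under 7 (up to 0.074), Serpinb6a under 5 (up to 0.0869) and Serpina1e under 1 (0.0772, with a pseudocount of 0.1). The other 8 serpins, and Ctsl, Ctss and Plaur, kept theirs under every alternative that gave a value, whereas Cma1 lost it under 12 of 18 (adjusted p of up to 0.112), as did Klk7 (up to 0.0874). Among those 8 serpins, Serpinb3d and Serpina11 passed the filter through 1 group alone and gave a value under 14 of 18 alternatives.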

How the results depend on the processing

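Over all alternatives no result turned its direction past the threshold. The number of other serpins called at P36 was 17, and 10 with a filter of 5 FPKM; leaving out a library gave 10 to 14. At 6 months it was 7, and 11 with the replicate block; leaving out a library gave 4 to 11. For the difference between ages it was 17; leaving out a library gave 10 to 16. Of the 8 genes, 6 to 7 were called for age in DKO and 6 to 8 in control. The counts of other serpins called for age lay between 14 and 21 in DKO and 13 and 23 in control. With Serpinb3d added, the log2 fold change of the Serpinb3 sum was 3.53 at P36 and 2.99 at 6 months. Replicate numbers do not pair the libraries: same-numbered libraries had correlations of deviations between -0.22 and 0.18. With the replicate block 15 other serpins were called at P36, and Serpinb3a in control passed for age (adjusted p = 0.00859). Scaling moved the median of all genes to -0.03 at P36 and -0.12 at 6 months. Among the calls for the difference between ages, 39.5% were higher, and 54.7% with median-ratio scaling or 28% with totals without keratin genes. Where a library was left out, the 2 left in its group set the spread with the other groups. Depth is unknown, so values under 1 FPKM, such as control Serpinb3a and Serpinb3c at P36, are weakly determined.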

Other observations

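Control replicate 1 at 6 months stood apart in several protease and serpin genes. Plau was at its lowest there, at 2.17 FPKM, against 16.45 and 15.67 FPKM in the other control libraries. Serpinb6e stood at 46.87 FPKM in it, against 11.95 and 17.86 FPKM. Serpinb2, an inhibitor of plasminogen activators, was also highest there, at 325.23 FPKM.

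Some clade A serpins had a strong course with age in both genotypes. Serpina1e fell by 3.47 in DKO (adjusted p = 1.28e-08) and by 4.41 in control (adjusted p = 9.17e-10) at 6 months on the log2 scale. Serpina3b was higher at 6 months by 4.28 in DKO (adjusted p = 0.000207) and by 1.88 in control (adjusted p = 0.026). The control call of Serpina3b was lost without control replicate 3 at P36 (adjusted p = 0.104) or control replicate 1 at 6 months (adjusted p = 0.0874), with 0.00727 the lowest over all alternatives. Of the 28 further serpins tested for age, 12 were higher and 7 lower in DKO, against 28% and 32% of all genes. In control 16 were higher and 3 lower, against 35.3% and 27.9% of all genes.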
